A study of Homo sapiens with 6 samples.

Results

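The genes described here are 10 genes of the actin cytoskeleton: the cytoplasmic actins ACTB and ACTG1, the tropomyosins TPM1, TPM2, TPM3 and TPM4, the transgelins TAGLN and TAGLN2, the calponin CNN2 and the myosin light chain MYL9. They were taken by gene name from 58302 listed genes, and each name matched a single listed gene. All 10 were among the 10120 genes tested, whose mean level reached 1 FPKM, a unit that scales fragments by gene length and library size. The libraries come from HCCLM3 cells, a human hepatocellular carcinoma line with high metastatic capacity, transfected with an antisense oligonucleotide (ASO). One group of 3 libraries received SCARNA13 ASO, directed at a small Cajal body RNA, and the other group of 3 libraries received Control ASO, so all cells carried an oligonucleotide. The sources used here do not state the oligonucleotides' sequence, dose or time. The genes were chosen by their measured FPKM differences between SCARNA13 ASO and Control ASO within replicate numbers, so their values are given as a description: no p-value is given for them, and where a fit across all genes called some of them, that is stated as a count from which nothing is read.

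Actin monomers polymerise into filaments that carry the shape, contraction and movement of a cell. Tropomyosins are coiled-coil proteins that run along the filament and set which partners can bind it. Transgelins and calponins also bind and stabilise filaments, and MYL9 is a regulatory light chain of myosin II, the motor that pulls on them. Many of these genes are known targets of serum response factor (SRF), which binds a short promoter element called the CArG box, and whose cofactors of the MRTF family are held inactive by free actin monomers. In carcinoma cells these genes are followed as part of the contractile and migratory programme.

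The members are shown by sequence first, because both actins are near-identical and because the CArG box is the promoter element through which SRF acts. The coding sequences of ACTB and ACTG1 were identical at 1027 of 1125 aligned bases (91.3%). Their first 60 coding bases in GENCODE 29, 5′ to 3′, differ at 10 positions, which are in capitals:
ACTB: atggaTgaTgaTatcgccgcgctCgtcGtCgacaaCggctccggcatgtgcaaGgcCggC
ACTG1: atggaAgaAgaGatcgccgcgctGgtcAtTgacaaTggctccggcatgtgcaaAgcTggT

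The other families were less alike. Tropomyosin coding sequences were between 76.8% (TPM3 and TPM4) and 80.2% (TPM2 and TPM3) identical in pairs, and TAGLN and TAGLN2 were 72.2% identical. Windows of 50 bases in 1 coding transcript per gene that also occur in a transcript of another gene made up 10.3% for ACTB, most often shared with ACTBP2, 3.58% for ACTG1, most often shared with ACTG1P20, and 0% for TPM2 and MYL9. Reads listed under the 10 pseudogenes of ACTB came to 249 over the 6 libraries, against 621486 for ACTB itself.

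Promoter sequences from RefSeq (build GRCh38.p14, 250 bases before to 50 after a start) were listed for 7 of the 10 genes. A CArG box lay in a promoter of 3 of those 7, namely ACTG1, CNN2 and TPM4. Of all 27305 genes with a listed promoter 1.6% have one in at least 1 promoter, and of all 35116 listed promoters 1.29% hold one. These windows of 60 bases are given 5′ to 3′ on the strand of the gene, with the box in capitals. They span chr17:81512859-81512918 (minus strand) for ACTG1, chr19:1026494-1026553 (plus strand) for CNN2 and chr19:16067340-16067399 (plus strand) for TPM4:
ACTG1: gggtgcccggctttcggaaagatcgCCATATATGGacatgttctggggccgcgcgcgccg
CNN2: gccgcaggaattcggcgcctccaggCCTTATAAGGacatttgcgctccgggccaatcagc
TPM4: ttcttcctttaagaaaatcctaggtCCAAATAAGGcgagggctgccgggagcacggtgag

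The box starts 94 bases before the transcription start in ACTG1, 89 bases before it in CNN2 and 173 bases before it in TPM4, at 1 of the 3 listed starts of that gene. No box of this form lay in the listed windows of TAGLN2, TPM1, TPM2 and TPM3, which is a statement about those letters and windows alone.

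The libraries held 21975166, 23326235 and 20457474 reads in genes after SCARNA13 ASO, and 25173559, 21864034 and 20663908 after Control ASO. SCARNA13 itself had 2, 3 and 2 reads after SCARNA13 ASO and 6, 5 and 2 reads after Control ASO, and this depth does not resolve a difference. Nothing in the labels says whether replicates were separate cultures, so p-values measure the spread between libraries, which may be technical. The cells carried the simple keratins KRT8 and KRT18, each at 766 FPKM or more in every library, whereas the other 6 of 8 liver epithelial markers, among them ALB, AFP and HNF4A, stayed under 1 FPKM in every library. Of 7 smooth muscle markers only ACTA2 reached 1 FPKM, with summed levels of 4.26 to 6.36 FPKM after SCARNA13 ASO and 4.94 to 8.33 FPKM after Control ASO, and 0 of 5 striated muscle, 0 of 3 endothelial and 0 of 4 immune markers did. Of 8 fibroblast markers THY1, COL3A1 and PDGFRB reached 1 FPKM, and DCN, COL1A2 and LUM did not; the summed level of the list was 25.4 to 41.1 FPKM after SCARNA13 ASO and 27.1 to 67.6 FPKM after Control ASO, and its part in the results was not tested. In bulk RNA, fewer cells of a type and less RNA per cell cannot be told apart.

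Both libraries of replicate 3 stood apart from the other 4, with a shift that followed the base composition of the genes. The median gene of the highest GC decile lay 0.76 above the mean of the 6 libraries on the log2 scale in SCARNA13 ASO replicate 3 and 1.05 above it in Control ASO replicate 3, and 0.39 to 0.50 below it elsewhere. In deposited FPKM the members split by base composition too. In Control ASO, 7 members were higher in replicate 3 than the mean of replicates 1 and 2. They ran from 1.70-fold in TPM2 to 3.87-fold in TAGLN, and their longest transcripts were 55.1% to 60.5% G and C. The other 3, TPM1, TPM3 and TPM4, stood at 0.763, 0.805 and 0.615 of that mean, and their transcripts were 44.7% to 48.5% G and C. The scale of these FPKM differs as well. They imply a library size of 0.633 of the read total in Control ASO replicate 3, against 1.21 and 1.22 in replicates 1 and 2. The folds therefore hold both differences, and the part of each was not tested. Values were therefore compared within a replicate number, and a log2 fold change was also fitted after removing the trend with GC content from each library, with the replicate number as a block. For the 3 pairs, the deviations of the libraries from their group means correlated across genes at 0.835, 0.785 and 0.915. The shift of replicate 3 enters every group mean, so these values do not show whether replicates 1 and 2 are paired by number. Comparing within pairs does not remove the difference in FPKM scale inside pair 3. There the implied library size was 0.760 of the read total in SCARNA13 ASO and 0.633 in Control ASO. Percentages and log2 differences given for pair 3 on deposited FPKM hold this offset.

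**Figure D1:**
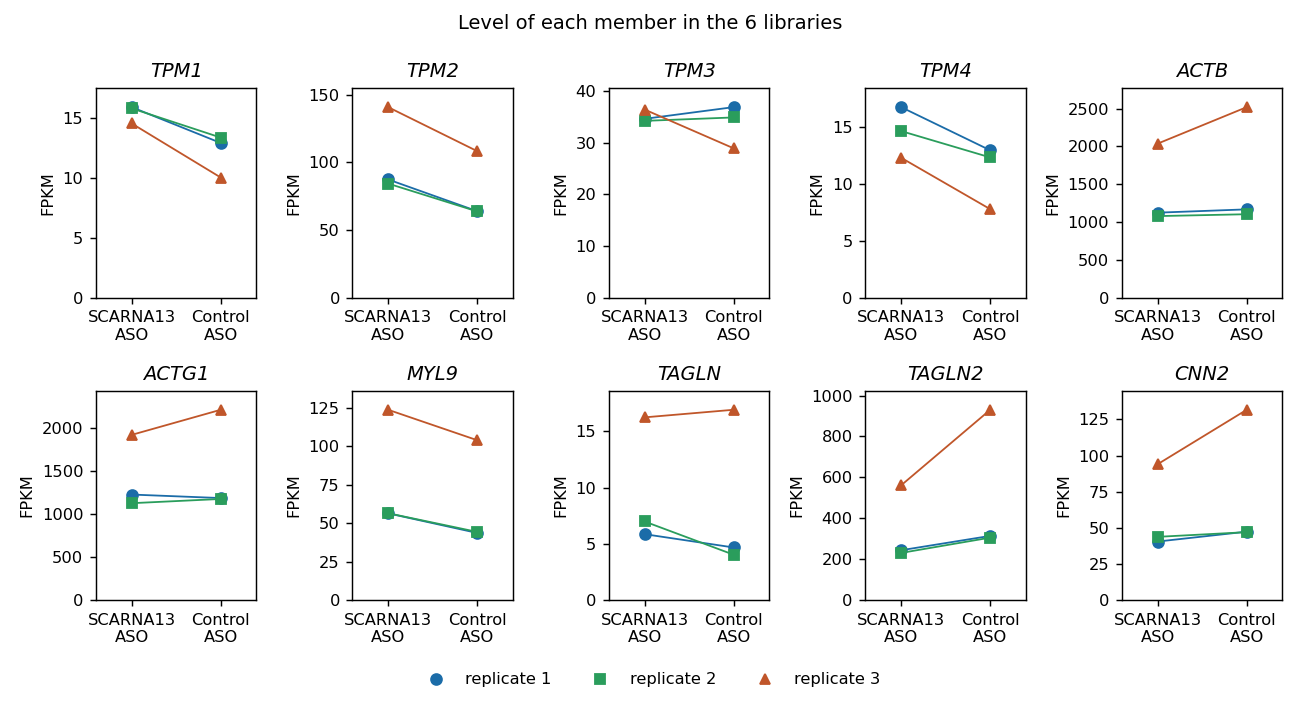
Level of each of the 10 genes in FPKM on a linear axis, with 1 panel per gene, SCARNA13 ASO on the left, Control ASO on the right and a line joining libraries of the same replicate number. Replicate 3 (triangles) lies far above replicates 1 and 2 in ACTB, ACTG1, TPM2, MYL9, TAGLN, TAGLN2 and CNN2, while the lines of TPM1, TPM2, TPM4 and MYL9 are higher on the SCARNA13 ASO side in all 3 pairs.

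Tropomyosin transcripts were higher after SCARNA13 ASO in all 3 pairs for TPM1, TPM2 and TPM4, and TPM3 had no shared direction. TPM2 (ENSG00000198467, chromosome 9, 35681992 to 35691020 on GRCh38) was the most abundant of them in deposited FPKM, a ranking that depends on the listed gene lengths. It measured 87.3, 84.3 and 141 FPKM in replicates 1, 2 and 3 of SCARNA13 ASO, against 63.8, 63.7 and 108 FPKM in Control ASO. Each treated library was thus above its own partner by 36.8%, 32.3% and 30.1%, although the groups overlap because of replicate 3. The GC-corrected log2 fold change with the block was 0.47 ± 0.051 (SE, n = 3 pairs), or 1.38-fold. Every SE given with a fit is limma's moderated one. It draws the variance of a gene toward that of all genes, so it is not the spread of that gene's pairs alone. TPM2 had the smallest spread between pairs of all tropomyosins, and 5731 reads or more in each library. Its coding transcript of 1392 bases shares no 50-base window with another gene. The gene length in the deposited files is 4047 bases, and the rest of it was not checked.

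TPM1 (ENSG00000140416, chromosome 15, 63042632 to 63071915), whose products stabilise stress fibres, measured 15.9, 15.8 and 14.5 FPKM after SCARNA13 ASO, against 12.9, 13.4 and 10.02 FPKM after Control ASO. Every treated library lay above every control library, which held for 1 of the 10 members and for 4% of all genes tested. The opposite, every treated library below every control library, held for 0 members and for 4.44% of all genes. Its GC-corrected log2 fold change was 0.34 ± 0.062 (SE, n = 3 pairs). Exons of antisense genes on the opposite strand cover 21.4% of its exonic bases. AC079328.2, one of these, had between 1 and 37 reads in a library, against 1638 or more for TPM1.

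TPM4 (ENSG00000167460, chromosome 19, 16067021 to 16103005), a tropomyosin of the non-muscle cytoskeleton, measured 16.7, 14.6 and 12.3 FPKM after SCARNA13 ASO, against 12.9, 12.3 and 7.76 FPKM after Control ASO. Its pairs differed by 29.3%, 18.8% and 58.2%, a wider spread than in TPM1 or TPM2, and its GC-corrected log2 fold change was 0.42 ± 0.081 (SE, n = 3 pairs). Windows shared with other genes made up 26.2% of its coding transcript, most of them with AC098614.1, which stood at 1.12 to 1.64 FPKM in the 6 libraries. TPM3 (ENSG00000143549, chromosome 1, 154155304 to 154194648) gave 34.6, 34.3 and 36.4 FPKM after SCARNA13 ASO and 36.9, 34.9 and 28.9 FPKM after Control ASO. Its pair differences on the log2 scale were -0.09, -0.03 and 0.33 on deposited values, and -0.08, 0.01 and 0.27 after GC correction. The GC-corrected fit of 0.065 ± 0.080 thus rested mostly on replicate 3.

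In replicates 1 and 2, where TPM2 was higher and TPM3 lower after SCARNA13 ASO, the make-up of the tropomyosin pool differed too. TPM2 held 56.5%, 56.6% and 69.0% of the summed FPKM of the 4 genes after SCARNA13 ASO, against 50.4%, 51.3% and 69.8% after Control ASO. TPM3 held 22.4%, 23.0% and 17.9% after SCARNA13 ASO, against 29.2%, 28.1% and 18.7% after Control ASO. The share of TPM2 was thus higher in replicates 1 and 2 and slightly lower in replicate 3. Relative to both actins, the summed tropomyosin level was 6.57, 6.75 and 5.15 FPKM per 100 FPKM of actin after SCARNA13 ASO, against 5.37, 5.45 and 3.27 after Control ASO. That ratio was higher in each pair, by 1.22-fold, 1.24-fold and 1.58-fold. It uses deposited FPKM without GC correction, and TPM1, TPM3 and TPM4 are lower in G and C than the actins. The shift of the highest GC decile was 0.76 in SCARNA13 ASO replicate 3 and 1.05 in Control ASO replicate 3. Its part in the ratio was not tested. Levels use the gene length in the deposited files, which for TPM1 (12492 bases) and TPM3 (8389 bases) covers alternative exons, while the coding transcripts used above have 1800 and 1523 bases. The shares and the rank of TPM2 depend on these lengths. In reads, TPM3 exceeded TPM2 in Control ASO replicates 1 and 2 (9420 and 7800 against 7859 and 6863) and was below it in every other library.

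**Figure D2:**
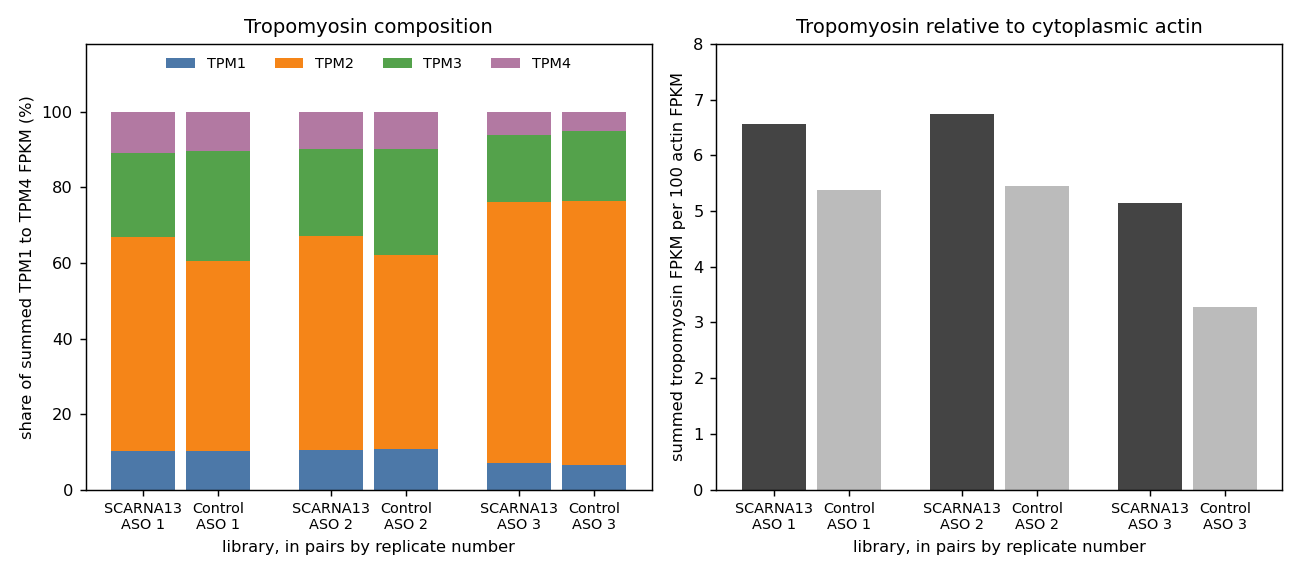
Left, share of each tropomyosin gene in the summed FPKM of TPM1 to TPM4 (stacked bars, %); right, summed tropomyosin FPKM per 100 FPKM of ACTB and ACTG1, with 1 bar per library placed in pairs by replicate number, SCARNA13 ASO in dark grey left of Control ASO in light grey. The TPM2 share is 56.5% against 50.4% in replicate 1 and nearly level in replicate 3. The ratio to actin is higher after SCARNA13 ASO in all 3 pairs, on deposited values without GC correction.

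The cytoplasmic actins, which build the filaments themselves, were the most abundant members, and their differences between the groups were small. ACTB (ENSG00000075624, chromosome 7, 5527151 to 5563784) measured 1124, 1079 and 2037 FPKM after SCARNA13 ASO, against 1168, 1104 and 2520.5 FPKM after Control ASO. On deposited FPKM it was lower by 3.75% and 2.25% in replicates 1 and 2 and by 19.2% in replicate 3. The last value holds the scale offset of pair 3. ACTG1 (ENSG00000184009, chromosome 17, 81509971 to 81523847) measured 1229, 1129 and 1923 FPKM after SCARNA13 ASO, against 1188, 1178 and 2215 FPKM after Control ASO, with 1 pair higher and 2 pairs lower. After GC correction with the block the log2 fold changes were -0.074 ± 0.075 for ACTB and -0.0082 ± 0.075 for ACTG1 (SE, n = 3 pairs). Both are smaller than their own error. Under equal scaling of the read totals ACTG1 changed sign, to 0.028, while ACTB stayed below 0 at -0.032.

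The balance between both actins was also close. ACTG1 held 52.2%, 51.1% and 48.6% of the summed actin level after SCARNA13 ASO, against 50.4%, 51.6% and 46.8% after Control ASO. Together they took 0.904%, 0.840% and 0.939% of all reads after SCARNA13 ASO, against 0.887%, 0.865% and 0.937% after Control ASO. On that scale the large level of replicate 3 in FPKM is no longer visible. The deposited FPKM of replicate 3 imply a library size of 0.760 of the read total in SCARNA13 ASO and 0.633 in Control ASO, and 1.21 to 1.24 in the other 4 libraries. In pair 3, both actins together stood at 0.836 of Control ASO in summed FPKM, and at 1.002 in share of reads.

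MYL9 (ENSG00000101335, chromosome 20, 36541484 to 36551447), a light chain through which phosphorylation switches myosin II on, was likewise higher in all pairs. It measured 56.4, 56.5 and 124 FPKM after SCARNA13 ASO, against 43.7, 44.3 and 104 FPKM after Control ASO. The differences were 29.2%, 27.4% and 19.0%. The GC-corrected log2 fold change was 0.39 ± 0.055 (SE, n = 3 pairs), or 1.31-fold, and its level per 100 FPKM of actin was 1.29-fold, 1.32-fold and 1.42-fold that of the paired control.

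The transgelins and the calponin, related by a calponin homology domain, did not share a direction. TAGLN2 (ENSG00000158710, chromosome 1, 159918107 to 159925732), the broadly expressed transgelin of non-muscle cells, measured 244, 231 and 561 FPKM after SCARNA13 ASO, against 315, 306 and 931 FPKM after Control ASO. It was lower in every pair, by 22.3%, 24.4% and 39.7%, and most in replicate 3. The GC-corrected log2 fold change was -0.43 ± 0.065 (SE, n = 3 pairs). CNN2 (ENSG00000064666, chromosome 19, 1026581 to 1039068), a calponin of non-muscle cells, measured 40.6, 43.9 and 94.1 FPKM after SCARNA13 ASO, against 47.5, 47.1 and 132 FPKM after Control ASO. It was lower by 14.4%, 6.9% and 28.6%, with a GC-corrected log2 fold change of -0.21 ± 0.060.

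TAGLN (ENSG00000149591, chromosome 11, 117199321 to 117204782), the smooth muscle transgelin, was the least abundant member by mean FPKM over the 6 libraries. In replicate 3 of both groups TPM1 and TPM4 were lower than TAGLN. TAGLN measured 5.88, 7.002 and 16.3 FPKM after SCARNA13 ASO, against 4.69, 4.05 and 16.9 FPKM after Control ASO. The first and second pairs were higher after SCARNA13 ASO, by 25.3% and 73.1%, and the third was lower by 3.99%. These levels rested on 625, 782 and 990 reads after SCARNA13 ASO and 559, 422 and 868 reads after Control ASO. The exact 95% intervals of the pair ratios were 1.12 to 1.41, 1.54 to 1.95 and 0.876 to 1.05, which cover counting error only and do not overlap between replicates 2 and 3. After GC correction the pairs stood at 0.31, 0.71 and 0.13 on the log2 scale, with the third above 0 as well. The fitted value was 0.38 ± 0.12 (moderated SE, n = 3 pairs).

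Exons of PCSK7, a protease gene on the opposite strand, cover 446 of the 3917 exonic bases of TAGLN. PCSK7 measured 1.43, 1.45 and 2.49 FPKM after SCARNA13 ASO, against 1.04, 1.11 and 1.88 FPKM after Control ASO, higher in each pair. Over its whole length it had 864, 921 and 863 reads after SCARNA13 ASO and 704, 661 and 548 after Control ASO. These are more reads than TAGLN had in replicates 1 and 2 of both groups, and fewer in replicate 3. The library kit does not mark strand, so reads in the shared bases cannot be told apart, and their part in the value of TAGLN was not tested. TAGLN relative to TAGLN2 was higher in each pair. It came to 2.40, 3.03 and 2.90 FPKM per 100 FPKM of TAGLN2 after SCARNA13 ASO, against 1.49, 1.32 and 1.82 after Control ASO.

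**Figure D3:**
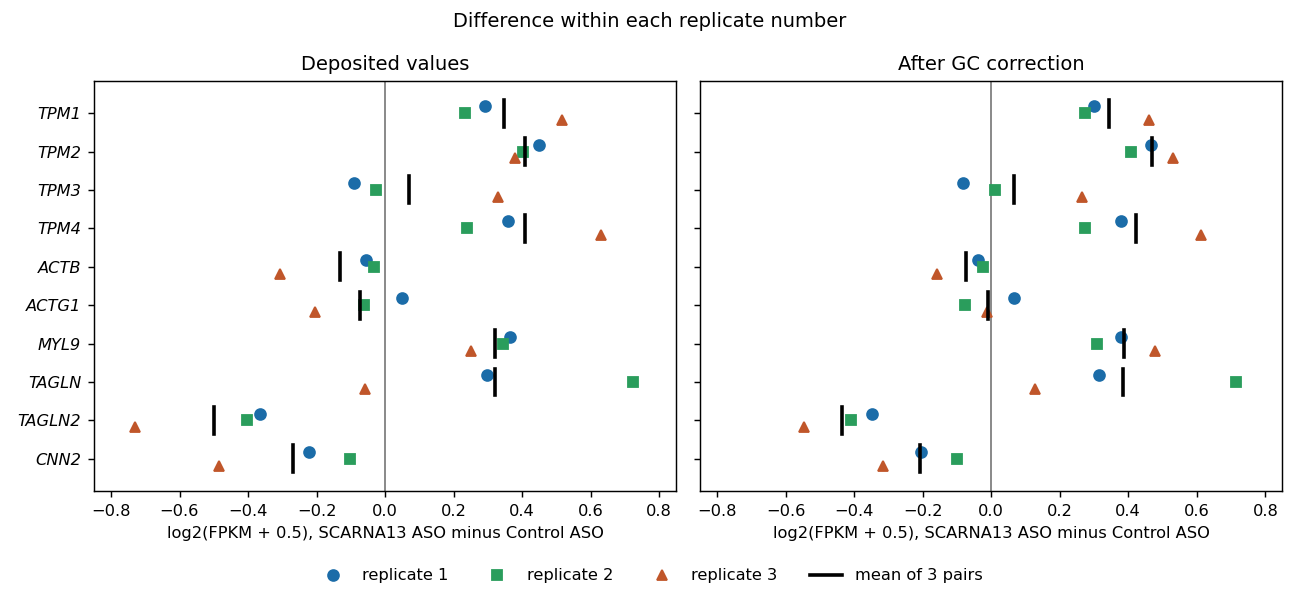
Difference in log2(FPKM + 0.5), SCARNA13 ASO minus Control ASO, within each replicate number for the 10 genes, on deposited values (left) and after GC correction (right); symbols are the 3 pairs and black bars their mean. TPM1, TPM2, TPM4 and MYL9 lie above 0 and TAGLN2, CNN2 and ACTB below 0 in all 3 pairs of both panels, TAGLN lies above 0 in all pairs only after correction, and TPM3 and ACTG1 lie on both sides.

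By direction, 4 of the 10 genes were higher in all 3 pairs on deposited values and 3 were lower, where 23.9% of all genes tested were higher and 29.6% lower in all pairs. After GC correction 5 were higher, with TAGLN added, and 3 were lower, where the shares of all genes were 28.9% and 28.3%. With limma-trend on deposited values and no block, 0 of the 10 had an adjusted p under 0.05, as did 0% of all 10120 genes. At an unadjusted p under 0.05 that fit had 173 genes, and limma-voom, run on the reads recovered from the FPKM values, called 0 genes as well. In the limma-trend fit with no block, the members' standard errors ran from 0.20 for TPM1 to 0.62 for TAGLN, larger than the fold changes of 7 members. With GC correction and block, TPM1, TPM2 and MYL9 were called higher and TAGLN2 lower, 4 of 10, where 5.21% of the 10104 genes tested were called, 3.06% higher and 2.15% lower. In replicates 1 and 2 with no block the same 4 were called, where 9.11% of all genes were, 4.52% higher and 4.59% lower. The replicate block alone called 0 of all genes, and with GC correction and block 14 genes were called without replicate 1 and 0 without replicate 2, so the members' calls ended in the first and last of these fits. Since the members were chosen with this contrast known, nothing is read from these counts. With GC correction and block in all 3 pairs, the members' median log2 fold change was 0.20, where the median of all genes was 0.00028.

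Replicates 1 and 2 alone, which do not carry the composition shift, gave the same signs in 9 of the members, and TPM3 turned to -0.059 ± 0.048 (SE). TAGLN was the largest of them at 0.51 ± 0.11, followed by TPM2 at 0.43 ± 0.043 and MYL9 at 0.36 ± 0.041. TPM4 stood at 0.30 ± 0.076, TPM1 at 0.26 ± 0.047, CNN2 at -0.16 ± 0.053 and TAGLN2 at -0.38 ± 0.049. ACTB and ACTG1 stood at -0.044 ± 0.055 and -0.0064 ± 0.059, both within their error.

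The other genes of the pathway were counted over 11 lists that held 120 genes outside the members, of which 101 were tested. Calls here are from limma-trend with GC correction and block, at an adjusted p under 0.05 over all 10104 genes. Of the 101, 2 rose, 3 fell and 96 did not pass, or 4.95%, against 5.21% of all genes. In the fit with no block, 0 of 101 passed in limma-trend and 3 had an unadjusted p under 0.05. With GC correction and block, 0 of them passed without replicate 1 and 0 without replicate 2. The median log2 fold change of the 101 was 0.037.

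SRF itself and its cofactors did not pass. SRF gave 23.0, 25.3 and 56.3 FPKM after SCARNA13 ASO and 25.6, 27.0 and 64.0 FPKM after Control ASO, with a log2 fold change of -0.073 ± 0.060 (SE, n = 3 pairs). MKL1, the cofactor MRTF-A, named here for its role after its values were seen, stood at 0.059 ± 0.077, and 0 of 5 tested genes of this list passed. Of 17 tested SRF and MRTF targets outside the members, 16 did not pass, 1 fell and 0 rose, and the median was -0.092. The gene that fell was CTGF, a secreted matricellular growth factor. It measured 26.9, 25.6 and 32.4 FPKM after SCARNA13 ASO, against 38.6, 38.9 and 52.4 FPKM after Control ASO, and its groups did not overlap (-0.57 ± 0.053, limma adjusted p = 0.0359). Over all settings its log2 fold change ran from -0.70 to -0.46 and its adjusted p from 0.0157 to 1.0.

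Its close relative CYR61 did not pass and had the opposite sign, at 0.27 ± 0.059 (adjusted p = 0.0645), with 219, 228 and 175 FPKM after SCARNA13 ASO and 196, 196 and 137 FPKM after Control ASO. The heavy chain of non-muscle myosin, MYH9, stood at 0.31 ± 0.074 (adjusted p = 0.0704), CNN3, a calponin, at -0.35 ± 0.086 (adjusted p = 0.0719) and the focal adhesion protein gene ZYX at -0.23 ± 0.052 (adjusted p = 0.0641). The smooth muscle actin ACTA2 gave 4.26, 4.07 and 6.09 FPKM after SCARNA13 ASO and 4.78, 4.72 and 8.19 FPKM after Control ASO without passing. Of 8 further actin, transgelin and calponin genes, only ACTA2 and CNN3 reached the mean of 1 FPKM needed to be tested.

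Among genes that crosslink or cap filaments, 1 of 14 tested fell and 0 rose, with a median of 0.12. FSCN1 encodes fascin, which bundles filaments in protrusions of moving cells. It measured 63.1, 62.3 and 121 FPKM after SCARNA13 ASO, against 92.6, 94.0 and 269.9 FPKM after Control ASO (-0.68 ± 0.077, limma adjusted p = 0.0365). It was lower in 3 of 3 pairs, and over all settings its value ran from -1.08 to -0.25 and its adjusted p from 0.0127 to 1.0. GSN, encoding the severing protein gelsolin, stood at 0.25 ± 0.067 without passing.

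Of 7 tested formins and other nucleators, 1 fell and 0 rose. The formin FHOD1, which acts on stress fibres, measured 19.9, 20.5 and 52.5 FPKM after SCARNA13 ASO, against 27.7, 27.9 and 85.9 FPKM after Control ASO (-0.47 ± 0.046, limma adjusted p = 0.0359). It was lower in 3 of 3 pairs, and its adjusted p ran from 0.0195 to 1.0 over all settings. On deposited values without Control ASO replicate 3 and with no block, its log2 fold change was -0.00064. That fit keeps replicate 3 in SCARNA13 ASO only. SPIRE1, another nucleator, stood at 0.38 ± 0.086 without passing. In the list of the Arp2/3 complex, which makes branched filaments, 0 of 13 passed. CTTN, encoding its activator cortactin, had 32.8, 33.7 and 35.2 FPKM after SCARNA13 ASO and 25.3, 25.7 and 19.3 FPKM after Control ASO, with a log2 fold change of 0.59 ± 0.14 (adjusted p = 0.0664).

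Genes of monomer binding and filament turnover gave 0 of 17 calls and a median of 0.013. The filament severing CFL1 stood at -0.28 ± 0.068 (adjusted p = 0.0715) and TMSB4X, whose product thymosin beta holds actin monomers, at 0.18 ± 0.066. Non-muscle myosin II and its regulators gave 0 of 9 calls and a median of 0.14, with the light chain MYL12A at 0.24 ± 0.079 and the light chain MYL6B at 0.19 ± 0.067, beside 0.39 for MYL9. Membrane linkers gave 0 of 4 calls, with EZR at 0.19 ± 0.068.

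In the focal adhesion list 1 of 14 rose and 0 fell. TLN2, a talin that joins integrins to actin, measured 1.91, 1.84 and 2.09 FPKM after SCARNA13 ASO, against 1.30, 1.15 and 1.17 FPKM after Control ASO (0.56 ± 0.10, limma adjusted p = 0.0486), and the groups did not overlap. Over all settings that tested it, its value ran from 0.42 to 0.68 and its adjusted p from 0.0480 to 1.0. The other gene that rose was RND3, whose product opposes the formation of stress fibres. It measured 13.5, 12.1 and 7.19 FPKM after SCARNA13 ASO, against 9.83, 8.35 and 4.55 FPKM after Control ASO (0.49 ± 0.057, limma adjusted p = 0.0365). It was higher in 3 of 3 pairs, with a range over all settings of 0.21 to 0.78 and adjusted p-values of 0.0365 to 1.0.

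**Figure D4:**
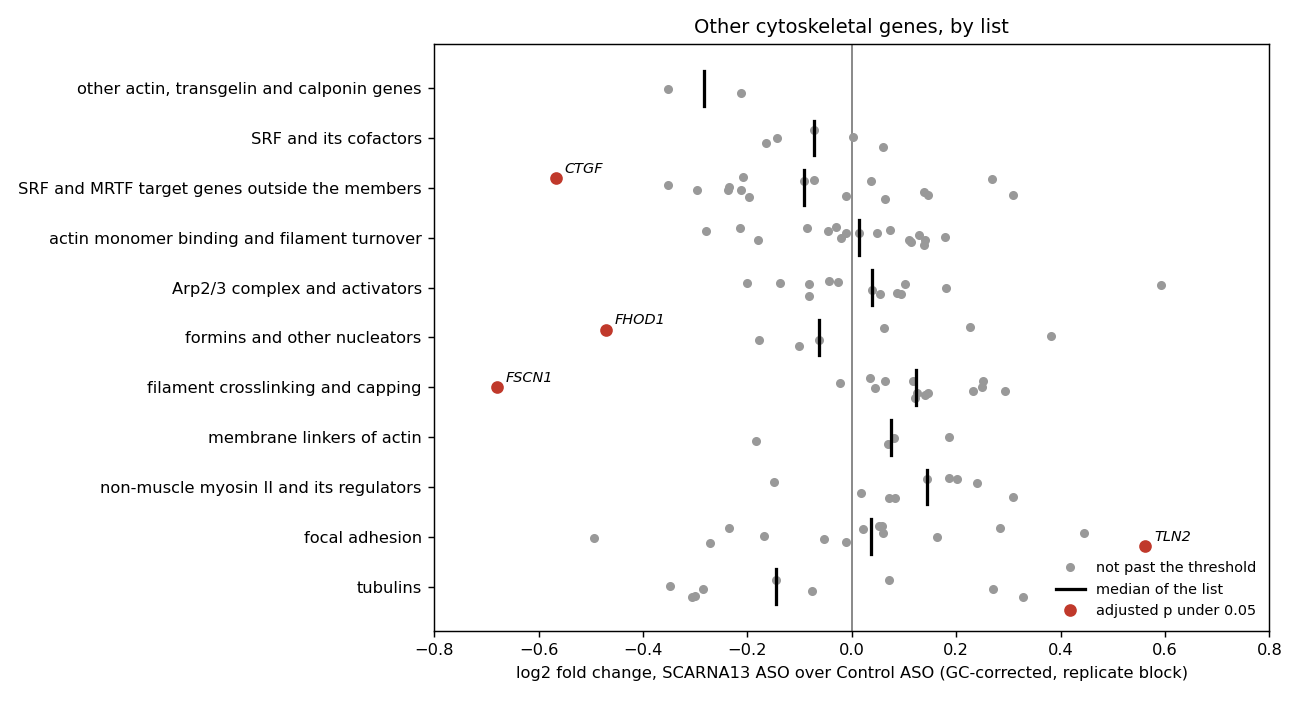
Log2 fold change, SCARNA13 ASO over Control ASO, with GC correction and replicate block, for the tested genes of 10 actin lists and of the tubulins, with 1 row per list (vertical position within a row is arbitrary). Red points passed an adjusted p of 0.05, grey points did not, and black bars are list medians; CTGF, FHOD1 and FSCN1 lie between -0.68 and -0.47, and TLN2 lies at 0.56.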

How the data were processed

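RNA (1 library per sample, 3 per group) was sequenced from HCCLM3 cells. Per the labels' protocols, RNA was extracted with Trizol and libraries were made with an Illumina TruSeq RNA kit, a poly(A)-selecting kit that, from general knowledge, keeps no strand information. The authors deposited 1 FPKM value per gene and library. The submitters' processing notes list TopHat2 2.0.9, Bowtie2 2.0.6 and hg19 without saying what each did; no counting tool or annotation is stated. Gene positions in the files are those of GRCh38, since 56636 of 58039 identifiers found in GENCODE 29 (97.6%) have the same start and end there.

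FPKM times gene length came out as whole reads, after division by 1 constant for each library, in 100% of values at a tolerance of 0.01. The first fit was limma-trend (limma 3.58.1, R 4.3.3) on log2(FPKM + 0.5), two-sided, with group as the only term and Benjamini-Hochberg adjustment over all genes whose mean reached 1 FPKM; fold changes on that scale understate low genes. A second fit subtracted from each library a loess trend (span 0.5) of its deviation on GC content and added the replicate number as a block. Standard errors of all fits are limma's moderated ones. The replicate numbers come from the titles and were taken as pairs because every pair's deviations correlated over 0.1 (0.835, 0.785 and 0.915); the data set apart only replicate 3. No libraries agreed within sampling noise.

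The members and gene lists were chosen with earlier results of these data known. Named genes were the members, list genes past the threshold, up to 4 genes of each list with the smallest p in the second fit (not all are printed), and the 5 genes most like TAGLN and TAGLN2; some of these results are not reported here. No protein sequences were used here.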

Additional observations from a re-analysis of the deposited data

How the results depend on the processing

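The members, the 101 tested list genes and all genes were refitted under 17 other settings and without each library in turn. In the 17 settings 8 of the members kept their sign; ACTG1 ran from -0.075 to 0.028 and TPM3 from -0.059 to 0.17. TPM1, TPM2 and TPM4 also kept it without any single library.

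Without a block, leaving out a library of replicate 3 moved the members most. Such a fit keeps replicate 3 in only the other group. The level of that replicate then enters the difference, so these values do not measure the ASO contrast alone. Without Control ASO replicate 3, TAGLN2 stood at 0.029, CNN2 at 0.22, ACTB at 0.25 and TAGLN at 0.94. Without SCARNA13 ASO replicate 3 they stood at -0.91, -0.65, -0.43 and -0.10, and MYL9 at -0.054. The members' median, 0.20 in the fit with no block, ran from -0.079 to 0.23 over these 6 fits. It was 0.13 in replicates 1 and 2 with or without a replicate block, 0.20 with GC correction and replicate block, 0.25 in that fit without replicate 1 and 0.16 without replicate 2, and 0.29 under equal total scaling with or without a block. Equal totals moved the median of all genes to 0.057, against -0.025 on the deposited scale.

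All genes past the threshold numbered 0 in the fit with no block and 0 with the replicate block alone. They numbered 526 with replicate block and GC correction, 14 without replicate 1 in that fit, 0 without replicate 2, 629 with the replicate block in replicates 1 and 2, 922 there without a block, and 243 and 72 with the block under equal total and trimmed mean scaling. The corresponding counts among the 101 list genes were 0, 0, 5, 0, 0, 7, 13, 4 and 1. The cause of these differences was not tested. With no block, both counts were 0 without each single library in turn. Of these settings, 3 (no block in replicates 1 and 2, and the block under both other scalings) were chosen after seeing the data. The members had 422 reads or more in each library.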

Other observations

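Tubulins, the subunits of microtubules, were followed beside the actin genes. Of 9 tested, 0 rose and 0 fell in limma-trend with GC correction and block, 5 had an unadjusted p under 0.05, and their median log2 fold change was -0.15. TUBB4B stood at -0.31 ± 0.064 (SE, n = 3 pairs) and TUBB2A at -0.30 ± 0.069. TUBB6 stood at 0.33 ± 0.083 and TUBB2B at 0.27 ± 0.061, so members of the family lay on both sides of 0.

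Among genes tested with GC correction and block that had a listed promoter, 107 held a CArG box and 7102 did not. Of the 107, 5 were called higher and 1 lower (5.61%), and of the 7102, 209 were called higher and 139 lower (4.90%). The medians were 0.048 and 0.00054 on the log2 scale.

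The genes most like TAGLN over the 6 libraries, among 3590 genes of at least 10 FPKM, were TRUB2, DCTN3, RPS2P32 and GRHPR, with Pearson's r of 0.996 to 0.998 on log2(FPKM + 0.5). Those most like TAGLN2 were CSRNP1, SMARCD1, SF3B4, ISYNA1 and EBI3, at 0.999 or more. These genes were 51.3% to 64.0% G and C in their longest transcript. The 6 points behind each r include both replicate 3 libraries, which stand apart in the level of TAGLN and TAGLN2.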
